A study of Mus musculus with 12 samples.

Results

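The genes described here are the 10 that encode the KEAP1 ligase, the transcription factors it controls, their DNA-binding partners and the adaptor protein p62, out of 55385 genes in the count tables. They were picked by symbol for their place in the pathway, by a rule that uses no measured value, although earlier results of these data were known: Keap1, Nfe2l2, Nfe2l1, Bach1, Mafg, Mafk, Maff, Cul3, Rbx1 and Sqstm1. Transcripts were measured in satellite cells, the resident stem cells of skeletal muscle, taken fresh from hindlimb muscle of C57BL/6J mice and frozen at once in liquid nitrogen. The 12 libraries came from 4 groups of 3 animals: females and males whose genotype is given as Keap1 heterogeneous (titled Hetz, read here as heterozygous), and females and males given as Keap1 knockout (titled KO). The stated question was why Keap1 and Nrf2 act on the maintenance and activation of these cells differently in the sexes. The animals' ages, the deleted exons and the promoter of any Cre are not given in the sources used here, and both genotypes carry an altered Keap1 allele as labelled, so wild-type levels were not measured. Nothing in the labels says that libraries share an animal.

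KEAP1 is the substrate adaptor of a ubiquitin ligase in which CUL3 is the scaffold and RBX1 the RING subunit. It holds NRF2, the protein of Nfe2l2, for degradation until oxidants or electrophiles modify its cysteines. NRF2 that escapes enters the nucleus, pairs with a small MAF protein and binds the antioxidant response element of detoxification genes. BACH1 pairs with the same small MAF proteins and represses many of these genes until heme removes it. NRF1, the protein of Nfe2l1, is a relative that is tied to the endoplasmic reticulum and drives proteasome genes, and p62, the protein of Sqstm1, can take KEAP1 into autophagosomes. Much of this control acts on proteins, which RNA counts do not show.

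Total counts ran from 13042039 to 19273245 per library, and each of the 10 genes passed the filter on low counts in every comparison. The lowest count of a member in any library was 90, for Keap1. All 10 satellite cell markers on the list used (among them Pax7, Myf5, Myod1 and Vcam1) were detected in each library. Their summed level was 13228 to 14322 CPM (counts scaled to a common library size, with a correction for composition) in female Hetz and 9175 to 11615 CPM in female KO, and overlapped between the male groups (16825 to 20594 and 18435 to 20159 CPM). Most of the female difference in the sum was Sdc4, at a mean of 7269 CPM in Hetz and 4873 CPM in KO, and 0 of the 10 markers passed (edgeR). Pax7 was at means of 13 and 12.5 CPM, while the means of Itga7, Cdh15 and Des were higher in female KO. Lower means in female KO were found for Myf5 (1395 to 1037 CPM), Myod1 (1542 to 1178 CPM) and Vcam1 (2033 to 1445 CPM). The same held for Calcr (128 to 86.5 CPM) and Cxcr4 (29 to 26.6 CPM). Over the list of 15 leukocyte markers the sum was 114 to 169 CPM in female Hetz and 48.6 to 74 CPM in female KO, with no marker at 0 and 3 of 13 tested lower. Schwann and glial markers summed to 72 to 104 CPM in female Hetz and 54.4 to 63.2 CPM in female KO, with 1 of 9 tested lower (Ptprz1). The sums of the other marker lists overlapped between the female groups, and all lists overlapped between the male groups. Among the males KO255 had the highest endothelial sum, 304 CPM, beside 120 and 145 CPM in KO240 and KO247 and 187 to 203 CPM in Hetz. Its red blood cell sum was also the highest, 79.5 CPM, beside 16.7 and 20.3 CPM in KO240 and KO247 and 29.4 to 43.4 CPM in Hetz. The mitochondrial rRNA share of counts was 0.302 to 0.507% in female Hetz and 0.733 to 1.03% in female KO. In males it went the other way, from 0.409 to 0.601% in Hetz to 0.226 to 0.407% in KO. Whether these shifts had a part in the changes described was not tested, and in bulk samples fewer cells of a type and less RNA per cell cannot be told apart. Nqo1, the quinone reductase commonly used as a readout of NRF2, stood at 5.75, 3.86 and 3.66 CPM in female Hetz and at 83.8, 82.8 and 110 CPM in female KO. The male Hetz values were 2.08, 3.87 and 4.42 CPM and the male KO values 36.7, 33.1 and 31.2 CPM, so in both sexes the libraries titled KO lay far above those titled Hetz.

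The 10 genes differed widely in level, from rank 21 to rank 8311 of the 13062 genes tested in both sexes. Levels of different genes were compared as RPKM, which divides the count by library size and by the summed exon bases of the gene. That length can differ from the length of the transcripts present. Sqstm1 was the highest at 879 to 1587 RPKM over the 12 libraries, rank 21. Mafk (94.8 to 198 RPKM, rank 352) and Nfe2l2 (95.3 to 132 RPKM, rank 427) followed. These neighbours overlapped in both female groups, whereas in both male groups all Mafk values lay above all Nfe2l2 values. Nfe2l1, Maff, Rbx1, Cul3 and Mafg formed a middle group between 12.3 and 44.9 RPKM, in which neighbours often overlapped. Bach1 stood at 4.74 to 12 RPKM and Keap1 was the lowest at 1.14 to 2.76 RPKM, rank 8311. In each of the 4 groups Sqstm1 lay apart from the gene next to it, Bach1 apart from the gene above it and Keap1 apart from Bach1. Among the ligase transcripts, that of the adaptor was the scarcest in these libraries: Cul3 stood at 13.9 to 21.4 RPKM and Rbx1 at 19.5 to 30.7 RPKM. All animals carried an altered Keap1 allele as labelled, so the order in wild-type cells is not known.

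**Figure D1:**
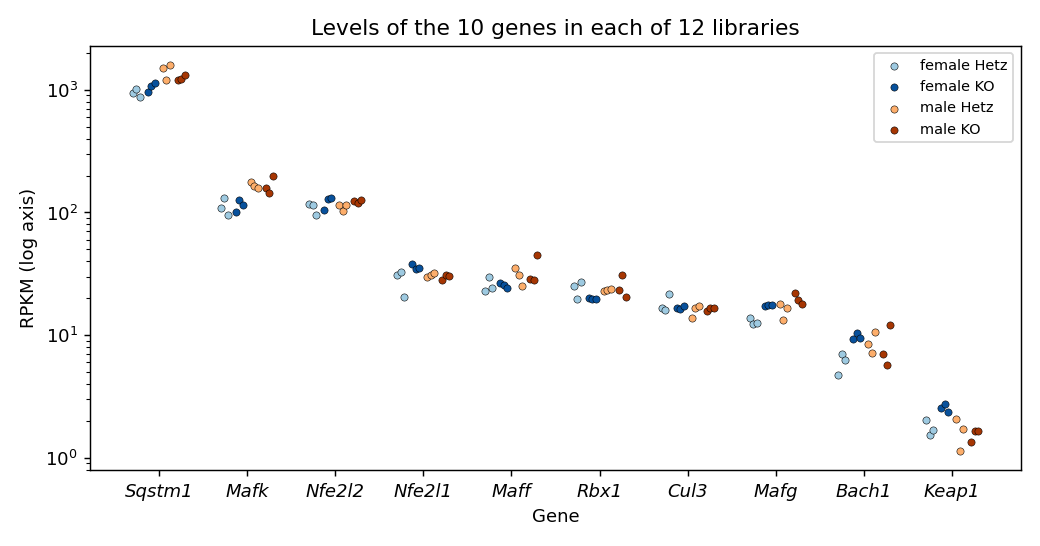
RPKM (log axis) of the 10 genes in each of the 12 libraries, coloured by group, with genes ordered by their mean. Sqstm1 lies at 879 to 1587 RPKM, Mafk and Nfe2l2 lie close together and Keap1 lies lowest at 1.14 to 2.76 RPKM.

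The subunits of the ligase did not pass as changed. Keap1 (chromosome 9, 21229730 to 21239361, minus strand, GRCm38) stood at 9.56, 7.18 and 7.95 CPM in female Hetz and at 11.9, 13 and 11 CPM in female KO. The female KO values lay above the Hetz values, with a log2 fold change of 0.54 ± 0.20 (SE, edgeR adjusted p = 0.186). In males Keap1 stood at 9.78, 5.33 and 8.08 CPM in Hetz and at 6.3, 7.74 and 7.7 CPM in KO. The male groups overlapped, and the change was -0.09 ± 0.25 (edgeR adjusted p = 0.936). The counts sum 6 exon blocks, and loss of a single exon need not be visible in them. They are therefore no test of the genotype label. Of the exonic bases 10.9% lie in Gm16754 as well, a gene model with 46 counts in all.

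Cul3, the scaffold (chromosome 1), ran from 77.6 to 105 CPM in female Hetz and from 79.2 to 84.5 CPM in female KO. In males it ran from 67.5 to 84.1 CPM in Hetz and from 77.1 to 81 CPM in KO. The groups overlapped in both sexes, and the 95% interval of the log2 change was -0.41 to 0.21 in females and -0.23 to 0.31 in males. Rbx1, the RING subunit that recruits the ubiquitin-carrying enzyme (chromosome 15), ran from 89.3 to 124 CPM in female Hetz and from 88.8 to 91.7 CPM in female KO. Its interval was -0.59 to 0.04 in females and -0.23 to 0.42 in males. All of these intervals include 0, and the female interval of Rbx1 lies mostly below it. The log2 ratio of Keap1 to Cul3 on the RPKM scale was -3.36 ± 0.31 (SD, n = 3) in female Hetz and -2.72 ± 0.16 in female KO, and -3.31 ± 0.57 and -3.41 ± 0.13 in the male groups. Averaged over the sexes it did not pass (exact two-sided permutation within sex, p = 0.27, adjusted over 5 such values 0.675).

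Nfe2l2, the gene of NRF2 (chromosome 2, 75675513 to 75704641, minus strand), did not pass as changed in either sex. Female Hetz animals had 446, 434 and 362 CPM and female KO animals 401, 489 and 500 CPM. Male Hetz animals had 434, 388 and 436 CPM and male KO animals 469, 452 and 478 CPM. The female groups overlapped and the male groups did not, with the KO animals higher by a small margin. The fold change was 1.12 in females (95% interval 0.895 to 1.4, edgeR adjusted p = 0.607) and 1.11 in males (0.93 to 1.34, edgeR adjusted p = 0.672). Averaged over the sexes the log2 change was 0.16 ± 0.09 (SE, edgeR adjusted p = 0.397).

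Nfe2l1, the gene of NRF1 (chromosome 11), stood at 168, 177 and 112 CPM in female Hetz and at 205, 187 and 193 CPM in female KO. The groups did not overlap, Hetz181 being the low animal, but the log2 change of 0.36 ± 0.17 (SE) did not pass (edgeR adjusted p = 0.297). In males it ran from 162 to 175 CPM in Hetz and from 154 to 168 CPM in KO. The male change was -0.05 ± 0.11 (edgeR adjusted p = 0.916). The log2 ratio of Nfe2l1 to Nfe2l2 on the RPKM scale was -1.99 ± 0.21 (SD, n = 3) in female Hetz, -1.76 ± 0.24 in female KO, -1.83 ± 0.11 in male Hetz and -2.04 ± 0.09 in male KO. The KO minus Hetz value was 0.23 in females and -0.21 in males, and the average over the sexes did not pass (exact two-sided permutation p = 0.935, adjusted p = 0.95).

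Bach1, the gene of the repressor (chromosome 16, 87698945 to 87733346, plus strand), was the member that rose in females. It stood at 29.3, 43 and 38.8 CPM in female Hetz and at 57.3, 64 and 59 CPM in female KO. Each KO animal lay above each Hetz animal, and the mean went from 37 ± 7.01 to 60.1 ± 3.52 CPM (SD, n = 3 each). The fold change was 1.62 (95% interval 1.27 to 2.07, edgeR adjusted p = 0.0425). The call is close to the threshold: it held without Hetz165 (0.00947) and was lost without Hetz164 (0.135), Hetz181 (0.088), KO166 (0.119), KO178 (0.157) or KO188 (0.151). It was also lost in the fit of all 12 libraries (0.0983). Over all female libraries the call held with DESeq2 (adjusted p 0.00452), limma voom (0.0442), RLE factors (0.0388) and no filter on low counts (0.00187). The log2 change lay between 0.55 and 0.82 over these settings.

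In males Bach1 stood at 52.4, 44.4 and 65.7 CPM in Hetz and at 43.7, 35.5 and 74.3 CPM in KO. KO255 was the highest and KO247 the lowest of the male libraries, so the groups overlapped fully. The log2 change was -0.08 ± 0.25 (SE, edgeR adjusted p = 0.944), and without KO255 it was -0.44. The female change exceeded the male one by 0.79 ± 0.31 on the log2 scale, a difference that did not pass over all genes (edgeR adjusted p = 0.324). Against Nfe2l2 on the RPKM scale, Bach1 was at a log2 ratio of -4.2 ± 0.38 (SD, n = 3) in female Hetz and -3.64 ± 0.14 in female KO. In males the ratio was -3.67 ± 0.21 in Hetz and -3.96 ± 0.51 in KO, and no common shift with genotype passed (exact two-sided permutation p = 0.6, adjusted p = 0.95).

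**Figure D2:**
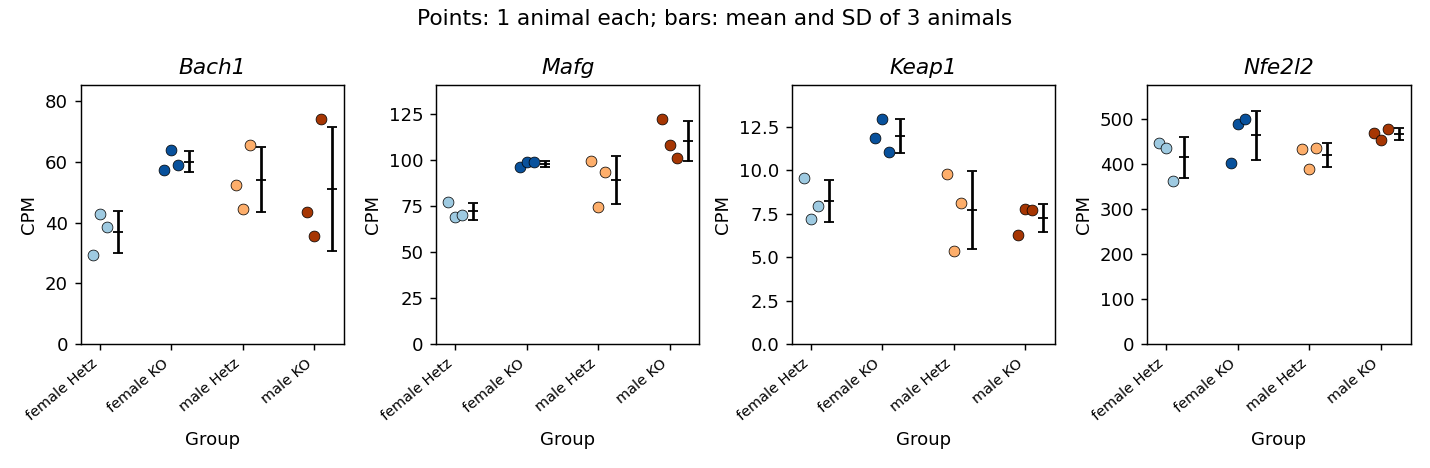
CPM of Bach1, Mafg, Keap1 and Nfe2l2 in each of 3 animals per group (points), with the mean and SD (bars) on axes that start at 0. In females Bach1 lies at 29.3 to 43 CPM in Hetz, below all KO animals, and in males the groups overlap, with KO spread from 35.5 to 74.3 CPM, while Mafg is higher in KO than in Hetz within each sex.

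The small MAF proteins are short basic leucine zipper factors that lack an activation domain and serve NRF2, NRF1 and BACH1 alike. Mafg (chromosome 11, 120625117 to 120633600, minus strand) was the one that passed on average over the sexes. It stood at 77.4, 69.2 and 70.1 CPM in female Hetz and at 96.2, 98.8 and 99.2 CPM in female KO. Male Hetz animals had 99.8, 74.6 and 93.7 CPM and male KO animals 123, 108 and 101 CPM. Groups did not overlap in either sex, by a wide margin in females and by a narrow one in males. Averaged over the sexes Mafg rose 1.3-fold (log2 change 0.38 ± 0.09, SE, edgeR adjusted p = 0.0341). Within a sex it did not pass, with 1.36-fold in females (edgeR adjusted p = 0.0947) and 1.24-fold in males (edgeR adjusted p = 0.414). The average was lost without any one of Hetz181, KO166, KO178, KO188, Hetz245, Hetz249 and KO240 (adjusted p 0.0651 to 0.106). Without any one of the other 5 libraries it held (0.0239 to 0.0469), and its log2 change stayed between 0.32 and 0.43 throughout.

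Mafk (chromosome 5) and Maff (chromosome 15) did not pass in either sex. Mafk ran from 370 to 513 CPM in female Hetz and from 393 to 496 CPM in female KO, and from 616 to 689 and 560 to 773 CPM in the male groups. Its log2 change was 0.03 in females (95% interval -0.31 to 0.38) and close to 0 in males (-0.31 to 0.31). Maff ran from 59.8 to 77.4 CPM in female Hetz and from 62.2 to 69 CPM in female KO. In males it ran from 65.5 to 91.5 CPM in Hetz and from 73.6 to 116 CPM in KO, with KO255 alone above the Hetz range.

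Mafk made up most of the small MAF transcript pool in every library, between 69.7 and 79% of the summed RPKM of the small MAF genes. Maff held 12.6 to 18.5% and Mafg 6.34 to 11.9%. The share of Mafg was 8.67 ± 1.37% (SD, n = 3) in female Hetz, 11.1 ± 0.774% in female KO, 7.48 ± 1.03% in male Hetz and 9.16 ± 1.96% in male KO. It was higher in KO by 2.08 percentage points on average over the sexes. The exact two-sided permutation p was 0.025 and the value adjusted over the 5 tested 0.125, so it did not pass. The share of Maff was lower in KO by 0.895 points in females and higher by 0.993 points in males, and its average over the sexes did not pass (exact two-sided permutation p = 0.95, adjusted p = 0.95).

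**Figure D3:**
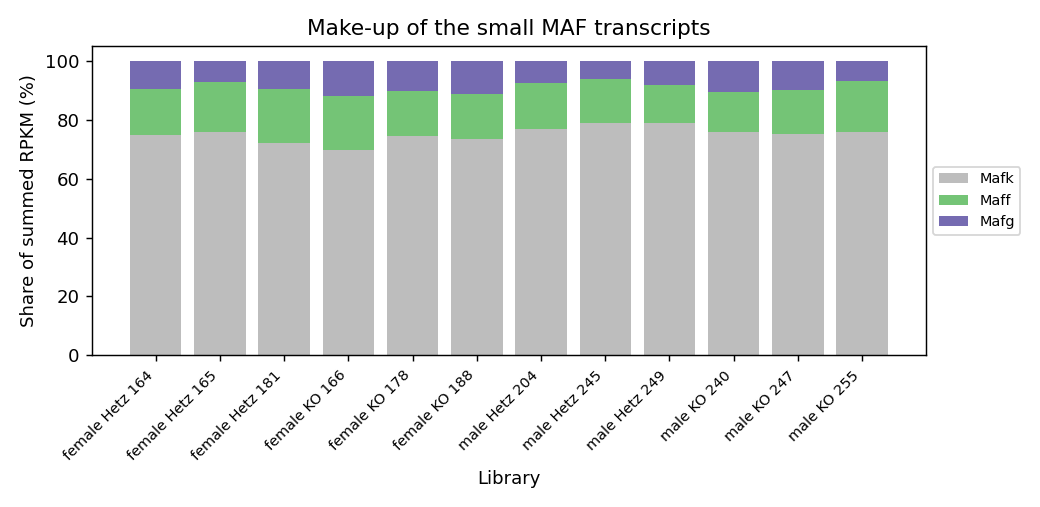
Share (%) of Mafk, Maff and Mafg in the summed RPKM of the small MAF genes in each of the 12 libraries. Mafk takes 69.7 to 79% throughout, and the Mafg share is 10.3 to 11.9% in female KO against 7.1 to 9.48% in female Hetz.

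The start regions of the members were searched for the core of the antioxidant response element, the letters TGACNNNGC on either strand, since NRF2, NRF1 and BACH1 dimers bind this element. Windows of 250 bases before to 50 after each RefSeq start (GRCm38.p6) were found for 10 of 10 members, 16 windows in all. A match was present for 4 members, Nfe2l2 and the small MAF genes, in 1 window each. Of all 32851 windows 12.4% held a match, and of 27025 genes 14% had one in at least 1 window. No member window held the AP-1 letters TGACTCA, which are in 5.2% of all windows and can overlap the core. The stretches are shown because they put the activator and its partners side by side, each 5′ to 3′ along its gene with the matched letters in capitals (the reverse complement of the core in Mafg and Mafk).
Nfe2l2, chr2:75704871-75704913, minus strand: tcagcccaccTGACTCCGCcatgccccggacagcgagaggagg
Mafg, chr11:120633737-120633793, minus strand: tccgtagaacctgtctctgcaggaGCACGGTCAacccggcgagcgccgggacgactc
Mafk, chr5:139791499-139791535, plus strand: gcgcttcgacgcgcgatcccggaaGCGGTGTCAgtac
Maff, chr15:79346485-79346541, plus strand: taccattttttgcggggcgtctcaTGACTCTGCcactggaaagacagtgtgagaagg
The matches begin 240, 222, 13 and 112 bases before the start in this order, and the stretches end at or before the start. Of these 4 genes Mafg passed on average over the sexes, while Nfe2l2, Mafk and Maff passed in no comparison. Bach1, which rose in females, held no match in its window, nor did Nqo1, whose level differed most between the genotypes among the genes named here. A match in these letters is a description of the sequence and not a measured binding site, and elements farther from the start were outside the windows.

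Sqstm1 (chromosome 11, 50199366 to 50210827, minus strand) encodes p62, an autophagy receptor that carries a KEAP1-binding motif. It stood at 3183, 3405 and 2949 CPM in female Hetz and at 3245, 3579 and 3788 CPM in female KO. Male Hetz animals had 5015, 4068 and 5326 CPM and male KO animals 4003, 4097 and 4432 CPM. The groups overlapped in both sexes. The log2 change was 0.15 ± 0.15 (SE, edgeR adjusted p = 0.629) in females and -0.20 ± 0.14 in males (edgeR adjusted p = 0.646). The female minus male difference was 0.36 ± 0.20 and did not pass (edgeR adjusted p = 0.478). Of its exonic bases 17.3% also lie in Mrnip, which had 73 counts in all, and fragments there were not assigned to either gene.

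Over the 10 genes, 1 passed in females (Bach1, higher), where 2.27% of 14036 genes passed, 1.29% of all genes higher and 0.983% lower in KO. An unadjusted edgeR p under 0.05 was found for 3 members in females, beside 17.9% of all genes. In males 0 of 10 passed, where 0.861% of 13361 genes did, and 0 had an unadjusted edgeR p under 0.05, beside 12.4% of all genes. DESeq2 and limma voom also called 0 members in males (2.27% of genes with DESeq2). On average over the sexes 1 passed (Mafg, higher), against 3.41% of 14772 genes, 2.15% being higher, and it was the 1 member at an unadjusted p under 0.05 (17% of genes). Both counts rest on a single gene and say nothing about the set.

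For the female minus male difference 0 of 10 passed with edgeR, DESeq2 or limma voom. An unadjusted edgeR p under 0.05 was found for 1 member (Bach1), beside 12.4% of all genes. The difference passed for 0.00677% of all genes with edgeR and for 3.13% with DESeq2. With DESeq2 2 members passed in females (Bach1 and Mafg), beside 5.71% of genes, and Mafg passed on average over the sexes, where 6.19% of genes did. The median log2 change of the members was 0.16 in females and 0.02 in males, beside medians of 0.00 and 0.01 over all genes tested.

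In females 4 members (Keap1, Nfe2l1, Bach1 and Mafg) had KO animals above all Hetz animals and 0 had them below, beside 11.9% and 10.4% of all genes (22.3% in either direction). In males Nfe2l2 and Mafg had KO animals above, beside 9.24% of all genes, and 0 members had them below (7.76%, and 17% in either direction). Mafg was the 1 member above in each sex, which held for 2.37% of the 13062 genes tested in both. The female and male changes had the same sign for 2 of the 10 members, Nfe2l2 and Mafg, both positive. Over all genes the sign was the same for 54%, and positive in each sex for 27.7%. Several member changes lay close to 0. In other settings the sign turned for Mafk, Maff and Cul3 in both sexes and for Keap1, Bach1 and Rbx1 in males.

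**Figure D4:**
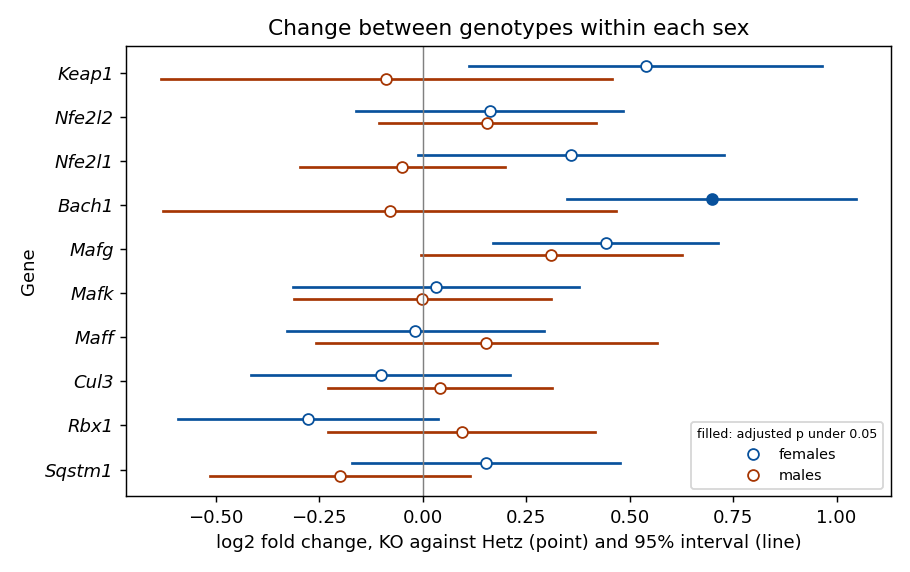
log2 fold change of KO against Hetz with its 95% interval for the 10 genes, in females (blue) and males (brown), filled where the adjusted p is under 0.05. The one filled point is Bach1 in females at 0.70, and most other intervals include 0.

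Further genes of the pathway were taken from 8 lists. Of 129 fixed genes 121 were tested in each sex. With edgeR 0 passed in females and 1 in males, beside 2.27% and 0.861% of all genes. An unadjusted edgeR p under 0.05 was found for 19 in females and 20 in males, beside 17.9% and 12.4% of all genes. The one that passed was Gsk3b, a kinase that marks NRF2 for turnover without KEAP1. It stood at 83.2, 107 and 87.6 CPM in male Hetz and at 150, 152 and 138 CPM in male KO, which is 1.59-fold higher (edgeR adjusted p = 0.0321). The call was lost without Hetz204, Hetz249 or KO240 (adjusted p 0.258 to 0.277) and in the fit of all 12 libraries (0.147). In females Gsk3b stood at 114 to 202 CPM in Hetz and 120 to 147 CPM in KO. The lists' median log2 change was -0.04 in females and 0.03 in males.

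Among other BTB adaptors of CUL3, 0 of 41 tested genes passed in either sex. Klhl21, an adaptor that acts in mitosis, came nearest in females, at 93.8 ± 20.8 CPM in Hetz and 152 ± 12.2 CPM in KO (SD, n = 3 each, edgeR adjusted p = 0.0541), and Klhl9 in males (log2 change 0.38, edgeR adjusted p = 0.212). Of the neddylation and exchange machinery that activates cullins 0 of 23 passed, with Cand2 at the smallest p in females (edgeR adjusted p = 0.223) and Dcun1d5 in males (log2 change -0.63, edgeR adjusted p = 0.142). Of other KEAP1 binders and modifiers 0 of 11 passed in females and 0 of 10 in males, led by Tbk1 (edgeR adjusted p = 0.197) and Pgam5 (edgeR adjusted p = 0.216). Of genes that process NRF1 0 of 11 passed, led by Ufd1 in females (edgeR adjusted p = 0.257) and Ngly1, the glycanase that converts NRF1, in males (edgeR adjusted p = 0.264).

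Of nuclear cofactors and importers of NRF2 0 of 13 passed, led by Rxra in females (edgeR adjusted p = 0.184) and Crebbp in males (edgeR adjusted p = 0.372). Of autophagy receptors and ATG8 proteins 0 of 10 passed, with Map1lc3b at 615 ± 177 CPM in female Hetz and 416 ± 37 CPM in female KO (SD, n = 3 each, edgeR adjusted p = 0.148) and Calcoco1 leading in males (edgeR adjusted p = 0.402). In the list of KEAP1-independent turnover 0 of 11 passed in females, where Ddb1 had the smallest p (edgeR adjusted p = 0.427). Of the other CNC, BACH and large MAF factors 3 of 7 were abundant enough to test in females and 4 in males, and 0 passed. Bach2 led there in females (25.3 ± 1.26 to 31.7 ± 5.12 CPM, SD, n = 3 each, edgeR adjusted p = 0.309) and Nfe2, at 0.67 to 3.31 CPM a low gene here, in males (edgeR adjusted p = 0.367).

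Of 14 listed targets of NRF2 and BACH1, 9 rose in females and 4 in males, with 0 lower (edgeR), a list whose direction was already known from these data. Hmox1, the heme oxygenase that BACH1 represses, did not pass. It was at 490, 262 and 250 CPM in female Hetz and at 337, 366 and 562 CPM in female KO, and the groups overlapped (edgeR adjusted p = 0.549). The male Hetz animals had 1804, 708 and 460 CPM and the male KO animals 345, 584 and 150 CPM in KO, again with overlap and with Hetz204 far above the rest (edgeR adjusted p = 0.577).

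The genes whose levels followed single members most closely over the 12 libraries were sought among 7948 others, after the mean of each sex was subtracted. For Bach1 they were Litaf (Pearson r = 0.93), Arhgef17 (0.89) and Slc43a1 (0.88). For Nfe2l2 they were Noct (0.91), Loxl1 (0.90) and Pld3 (0.89), and for Keap1 Bri3 (0.88), Ttc9 (0.87) and Ptms (0.86). These are the highest of many values over few libraries and are given as a description.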

How the data were processed

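Per the file headers, featureCounts 2.0.0 made the deposited counts from read pairs over exons, summed by gene of the Ensembl GRCm38 annotation, release 99. The headers show no strand setting and no option to count multimapping reads or reads shared by overlapping genes. Per the file headers they are raw and not estimated counts, and none was rounded. Gene lengths (another column of the deposited tables) are summed exon bases per the file headers. STAR, mm10 and DESeq2 are named in the submitters' processing notes. Per the labels, RNA was amplified by Smart-Seq2, which has no molecular identifiers. Females and males are separate tables, so sex and table cannot be told apart and no test compared levels between the sexes. The tables held 0 columns of other samples. A supplied table of gene names gave symbols for 55144 genes, and 241 had none.

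KO and Hetz were compared within each sex (6 libraries) with the quasi-likelihood test of edgeR 4.0.16 in R 4.3.3 (TMM, filterByExpr with a minimum count of 10, robust), adjusted by Benjamini-Hochberg over all genes tested, with a threshold of 0.05. The average and the female minus male difference came from 1 fit of 12 libraries with 4 group means. Intervals are 95%. CPM and RPKM use TMM factors over 12 libraries. Ratios and shares were tested by exact permutation within sex (400 arrangements, smallest p 0.005). Fits were tested on simulated data. Alternatives were DESeq2 1.42.0, limma 3.58.1 voom, RLE factors, no filter, the 12-library fit and each library left out. Replicates were distinct libraries, with chi-square over degrees of freedom from 12.4 to 65.2 within groups. No label states separate cultures or preparations, so p-values measure the spread between these samples. Nothing says how RNA preparation was batched. The 10 members are always named, and from each pathway list the gene with the smallest p in each sex. Members and lists were chosen with earlier results of these data known.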

Additional observations from a re-analysis of the deposited data

How the results depend on the processing

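The alternatives named under processing were run for every member. Members called in females numbered 1, but 2 with DESeq2 and 0 in the fit of all 12 libraries, and 0 to 1 with a library left out. On average over the sexes the count was 1, and 0 to 1 with a library left out. In males and for the female minus male difference it was 0 in all settings run. Klhl21 in females passed with DESeq2 (adjusted p 0.00701), with no filter (0.000887), in the 12-library fit (0.014) and without Hetz165 (0.0142). Map1lc3b in females passed with no filter (0.0167) and without Hetz165 (0.0326), and Ufd1 in females without Hetz165 (0.0266). Dcun1d5 in males passed with DESeq2 (0.0436), with no filter (0.0048) and without KO247 (0.0288). Of 40 member changes (10 genes in 4 comparisons) 23 kept their sign in every setting. The 17 others lay within 0.16 of 0 on the log2 scale and never had an adjusted p under 0.635 with the other sign. Their ranges with a library left out were, in females, -0.0801 to 0.17 for Mafk, -0.094 to 0.11 for Maff and -0.18 to 0.035 for Cul3. In males they were -0.30 to 0.12 for Keap1, -0.44 to 0.13 for Bach1, -0.14 to 0.098 for Mafk, -0.092 to 0.27 for Maff, -0.045 to 0.081 for Cul3 and -0.081 to 0.22 for Rbx1. On average they were -0.048 to 0.0804 for Mafk, -0.051 to 0.14 for Maff, -0.073 to 0.043 for Cul3 and -0.076 to 0.016 for Sqstm1. For the female minus male difference they were -0.075 to 0.11 for Nfe2l2 (-0.0047 with DESeq2 and -0.0046 with RLE factors), -0.062 to 0.17 for Mafk, -0.30 to 0.076 for Maff and -0.22 to 0.0088 for Cul3. With a library left out the KO minus Hetz value was 1.68 to 2.64 percentage points for the Mafg share and -0.488 to 0.437 for the Maff share (-0.0622 without division by length). It was -0.012 to 0.23 for the log2 ratio of Bach1 to Nfe2l2, -0.060 to 0.051 for Nfe2l1 to Nfe2l2 and 0.13 to 0.41 for Keap1 to Cul3. The cause of these changes was not tested. Depth limits Keap1 most, with 90 counts in the lowest library. No paired analysis was possible because the animal numbers in the labels are each used once and pair no animals across groups.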
